A study of Strongylocentrotus purpuratus with 5 samples.

Results

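Accessible chromatin regions that were narrower in late than in early blastulae of *Strongylocentrotus purpuratus*, the purple sea urchin, were examined. Regions at 12 h and 20 h of development were paired when each overlapped, by 1 bp or more, only the other in the list of the other stage, and pairs were selected on the lengths of their pooled regions, with a 20 h length of at most 50% of the 12 h length. Of 132054 such one-to-one pairs, 18116 met the limit, drawn from 238838 regions at 12 h and 258515 at 20 h. These lengths therefore describe the selection and carry no test.

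The assay was ATAC-seq on nuclei of whole, untreated embryos, which the labels call hatching blastulae at both stages and which were reared at the same temperature. The early stage had 2 libraries from 2 biological replicates, and the late stage had 3 libraries, of which technical replicates 1 and 2 shared biological replicate 1 and the last came from biological replicate 2. Nuclei of both early samples and of late replicate 2 came from a density gradient, whereas late replicate 1 followed another published nuclear protocol, so that protocol and replicate cannot be told apart at 20 h. The early libraries entered only as 1 pooled list, so that the difference between stages had no replicate check, and every early and late difference below also includes the deeper sequencing of the early stage, which cannot be told apart from stage. All embryos were bulk samples, and a region open in fewer cells cannot be told apart from a region less open in each cell.

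In ATAC-seq a transposase inserts adapters where DNA is not wrapped in nucleosomes, so that regulatory DNA such as promoters and enhancers appears as a peak of insertions. The width of a peak depends on how much DNA is free of nucleosomes, on how many neighbouring bound stretches are joined in a single call, and on how far the flanks rise above the threshold of the peak caller. In sea urchin blastulae, batteries of regulatory genes are switched on in successive tiers, and separate regulatory modules of the same gene can act at different stages and in different territories.

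Narrowing was common among long regions. The selected pairs were 13.7% of all one-to-one pairs and 21% of the 86226 pairs whose 12 h region measured 300 bp or more, the only ones that could be selected because no region in either list is shorter than 150 bp. The share was 11.4% at 12 h lengths from 300 to under 400 bp, 23.2% from 400 to under 600 bp and 29.1% at 600 bp and over. The mirror image, a 20 h region at least 200% as long, was met by 3216 pairs, or 2.44%, which is 5.63 narrowed pairs per widened pair. The 20 h regions were shorter in general, with a median ratio of 84.6% over all pairs. When 20 h lengths were first divided by that median ratio, 10983 pairs (8.32%) were narrowed and 5977 (4.53%) were widened, so that narrowed pairs still outnumbered widened ones but by less.

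**Figure D1:**
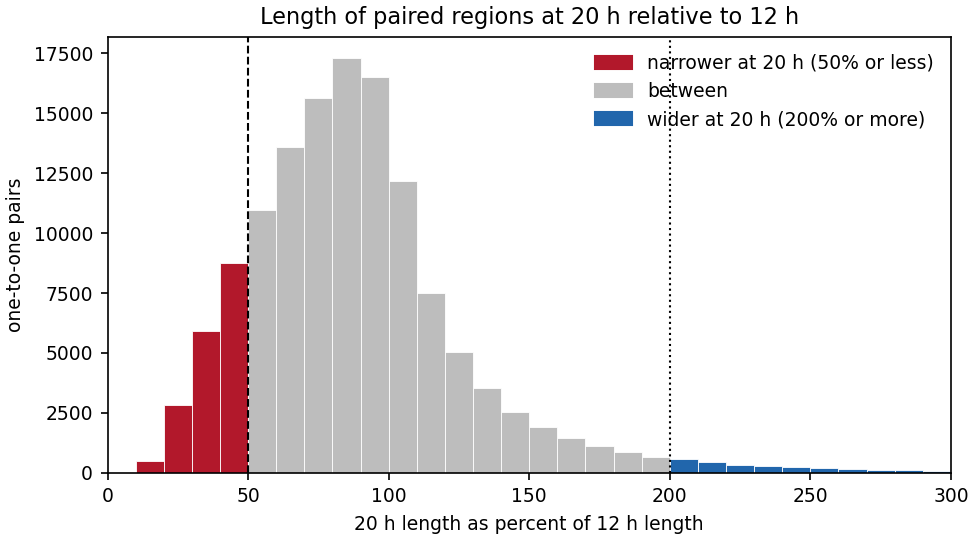
Histogram of 20 h length as a percent of 12 h length (x axis, bars of 10 points) against the number of one-to-one pairs (y axis), drawn up to 300%, with 635 pairs beyond. Red bars lie below the 50% limit (dashed line) and hold the narrowed pairs except those exactly at it, blue bars lie at or above 200% (dotted line), and the counts run through the 50% limit without a gap, with 8762 pairs in the bar below it and 10958 in the bar above.

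In the narrowed pairs the 12 h region had a median length of 539 bp and ranged from 300 to 2638 bp. Its 20 h counterpart had a median of 193 bp and ranged from 150 to 924 bp, and the median ratio was 39.7% with a lowest value of 9.09%. A median of 341 bp per pair, and 6978982 bp in all, was in the 12 h but not in the 20 h region. Among 35520 pairs with both bounds within 50 bp of each other, used below for comparison and called matching pairs, the medians were 275 bp at 12 h and 264 bp at 20 h. The shortest length the lists hold, 150 bp, was the 20 h length of 15.3% of the narrowed and 4.99% of the matching pairs. Only 1546 narrowed pairs, 8.53%, kept 25% of the 12 h length or less. The limit separated pairs that hardly differed. Just inside it were 360 and 180 bp on scaffold 100 (12 h region from 821252 to 821611) and 474 and 237 bp on scaffold 1041 (from 164294 to 164767), both at exactly 50%. Just outside were 1233 and 617 bp on scaffold 440 (from 272382 to 273614) at 50.04% and 955 and 478 bp on scaffold 489 (from 896448 to 897402) at 50.05%.

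The lost bases were often unevenly placed. In 12122 of the narrowed pairs, 66.9% (95% Wilson interval 66.2 to 67.6, counting error only), at least 75% of the lost bases lay on 1 side of the 20 h region. No reference share was computed, neither from other pairs nor from random placement of the 20 h region. The value therefore does not show an excess of uneven loss. The side that lost more gave up a median of 279 bp and the other side a median of 48 bp. At least 1 side lost 50 bp or fewer in 51.3% of pairs, some of which reached past the 12 h bound there, and in 23.4% 1 side lost no base at all. Both sides lost more than 50 bp in 48.7% and 100 bp or more in 24.3%. The left side lost more in 9048 pairs and the right side in 9051, with 17 ties, so that there was no preferred direction along the scaffolds, whose orientation is arbitrary. The 20 h region lay wholly inside the 12 h region in 78.8%. In the other 3838 pairs it ran past 1 end of it, by a median of 32 bp and at most 414 bp, so that these were shifted as well as shorter. Their loss lay on 1 side only by definition. One-sided loss held at 66.6% in pairs with a peak in both biological replicates and at 66.8% in pairs whose 20 h region exceeded 150 bp. With a limit of 90% of the lost bases in place of 75% it was 41.3%, a minority of the pairs.

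**Figure D2:**
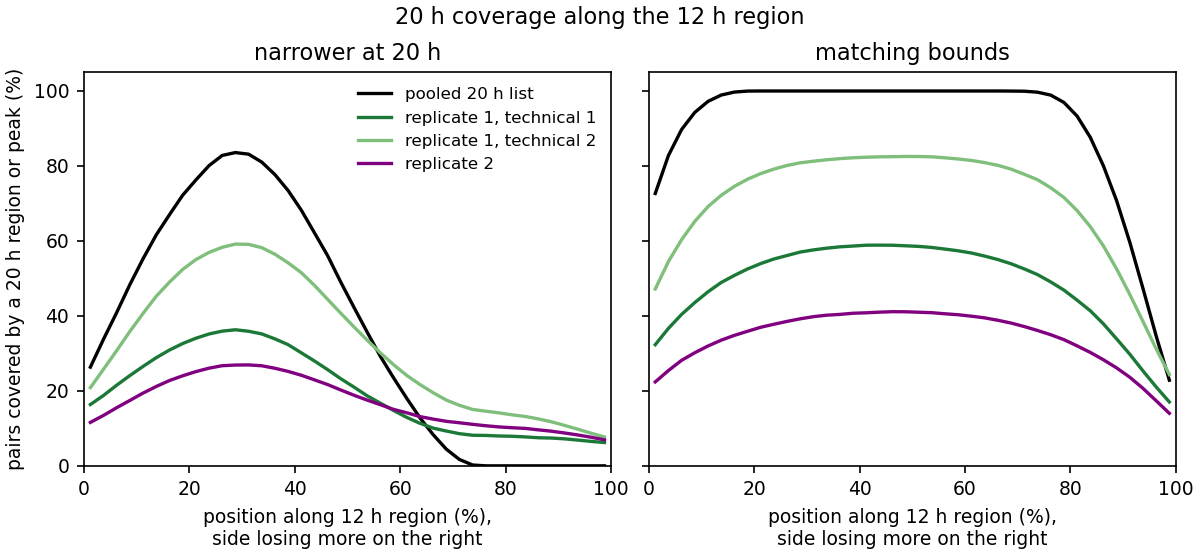
Percent of pairs (y axis) in which each position along the 12 h region (x axis, percent of its length, turned so that the side losing more lies on the right) was covered by the pooled 20 h list or by a merged peak of each 20 h library, for narrowed pairs (left) and matching pairs (right). In narrowed pairs the pooled coverage is highest at 83.6% near 28.8% of the length and reaches 0 at the right end, where the libraries still cover 6.22%, 7.69% and 6.94% of pairs.

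Peaks of the separate libraries show how far the lost flanks were open in single samples, although the same libraries also made the pooled 20 h list. Merged peaks covered 8.46% of the lost bases in technical replicate 1, 14.5% in the other technical replicate and 10.6% in replicate 2, which is 11.0% ± 0.657 (SD, n = 2 biological replicates). In the 12 h bases that were kept, the shares were 42.1%, 66.0% and 29.0%. In each library the kept bases were thus covered more often than the lost ones, which the selection itself favours. At least 1 library covered 31.9% of the lost bases, and 1.31% lay under a peak in both biological replicates. Lost bases lie outside a list made from these same libraries, so that the selection itself lowers both shares. They therefore cannot show how reproducibly the flanks were open. Of the narrowed pairs, 15811 (87.3%) had at least 1 lost base under a peak of some library, 4787 (26.4%) had 50% or more of their lost bases under such peaks, and 2305 (12.7%) had none. In 4046 pairs (22.3%) each biological replicate had a peak that touched the lost bases, but these peaks need not overlap or lie on the same side. A lost base under a peak can belong to a peak of the kept part that reaches past the 20 h bound, and such peaks were not separated from peaks that lie only in the flank.

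The next question was how well the 20 h regions were supported by replicates. A peak overlapped the 20 h region in 49.5% of narrowed pairs in technical replicate 1, 71.8% in the other technical replicate and 37.4% in replicate 2. Over all pooled 20 h regions the shares were 64.3%, 77.8% and 37.7%, so that replicate 2 was near its background and both technical replicates of replicate 1 were below theirs. Regions without a 12 h partner are part of that background, and in all other one-to-one pairs the shares were higher, at 70.3%, 86.4% and 49.1%, without regard to length. Both biological replicates had a peak in 5616 pairs, 31.0%, against 34.4% of all 20 h regions, and a peak in all 3 libraries was found in 1927 pairs, 10.6%. The most frequent single pattern was a peak in technical replicate 2 only, in 4753 pairs, followed by both technical replicates without replicate 2, in 3726. Only 648 pairs, 3.58%, had no peak in any library and rested on the pooled call alone.

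Support rose with length, and narrowed regions are short by selection. Without regard to length, both biological replicates had a peak in 45.6% of the matching pairs. After matching pairs were weighted to the 20 h lengths of the narrowed pairs, their share was 31.0%, the same as in the narrowed pairs. All other one-to-one pairs weighted in that way had 29.2%. Weighted to the 12 h lengths instead, the narrowed pairs lay -43.1 points from the matching pairs, whose 20 h regions are then far longer. The equality at 20 h length was a balance of unlike length classes. From 150 to under 200 bp the share was 21.4% (Wilson interval 20.6 to 22.3) in narrowed and 19.8% (19.0 to 20.6) in matching pairs. From 400 to under 600 bp it was 61.7% (57.8 to 65.4) in narrowed and 71.5% (70.3 to 72.7) in matching pairs, and in the 54 narrowed pairs of 600 bp and over it was 51.9% (38.9 to 64.6), against 88.1% (86.9 to 89.2). In these 2 classes, within which lengths were not equalised, the share was lower in narrowed pairs beyond counting error, and replicate 2 differed most. It had a peak in 62.0% of narrowed and 71.8% of matching pairs from 400 to under 600 bp, against 88.1% and 88.6% in technical replicate 1 and 94.3% and 97.2% in technical replicate 2. At 600 bp and over replicate 2 had a peak in 51.9% and 88.2%, but lengths were not equal there, since narrowed 20 h regions reached 924 bp and matching ones 3133 bp. With peaks of −log10 p of 3 or more only, the length-weighted difference was -6.93 points, lower in the narrowed pairs.

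**Figure D3:**
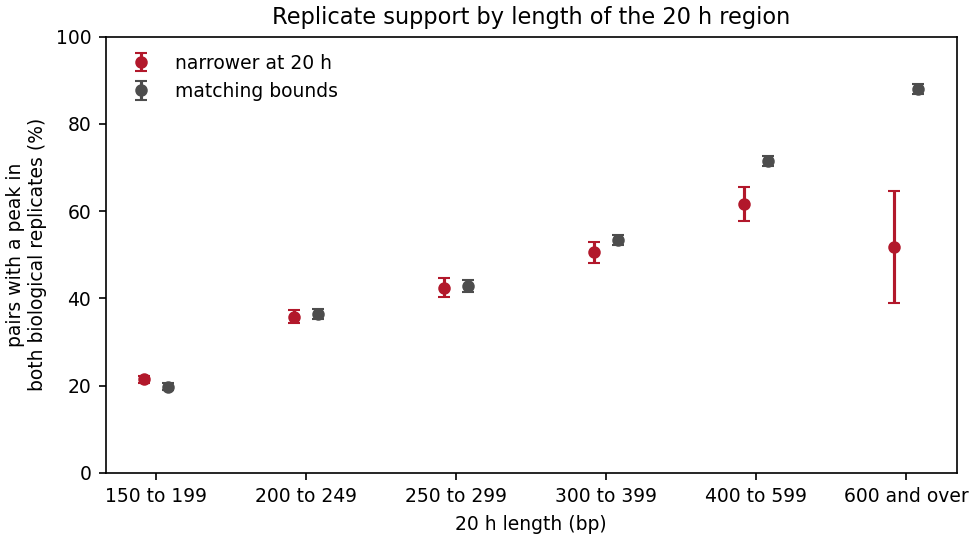
Percent of pairs with a peak in both biological replicates (y axis) by length class of the 20 h region (x axis, bp) for narrowed pairs (red) and matching pairs (grey). Bars are 95% Wilson intervals for counting error. The sets lie close together below 400 bp, at 50.5% and 53.4% in the class that starts at 300 bp, and part at 400 bp and over.

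Narrowed regions were also slightly weaker than matching regions. The median of the authors' fold enrichment over local background, taken at the best peak of each 20 h region, was 2.79 and 2.72 in the technical replicates and 2.81 in replicate 2 for narrowed pairs, and 3.22, 3.29 and 3.22 for matching pairs. Every library was lower in the narrowed pairs. The means over biological replicates were 2.78 ± 0.0353 and 3.23 ± 0.0265 (SD, n = 2). At equal 20 h length, the difference of log2 median fold enrichment was -0.17 and -0.19 in the technical replicates and -0.08 in replicate 2, with a mean of -0.13 ± 0.07 (SD, n = 2), a ratio of 0.913. The difference had the same sign in both biological replicates and was larger than the SD between them, but 2 replicates allow no exact test below 0.05. Median −log10 p was 3.102, 3.23 and 2.98 against 3.84, 4.13 and 3.67 without regard to length.

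Summits lay off centre in the 12 h region. The summit is the base of highest signal in a peak, and only summits inside the 20 h region were used, so that one-sided loss by itself moves them toward the kept side. Such a summit was found in 8439, 12513 and 5845 narrowed pairs in technical replicates 1 and 2 and replicate 2. It fell in the central 33.3% of the 12 h region in 36.8%, 38.3% and 38.9% of these. The mean was 38.2% ± 0.941 (SD, n = 2). In matching pairs with such a summit the shares were 57.1%, 66.3% and 56.6%, with a mean of 59.1% ± 3.59. Over 17027 narrowed pairs with a summit in any library, the best one lay left of this central part in 31.5% and right of it in 31.1%. In 2.99%, counted in these shares, it lay outside the 12 h region. The median distance from the centre of the 12 h region was 127.5, 114.5 and 116.5 bp in narrowed pairs and 45, 32 and 49 bp in matching pairs. From the centre of the 20 h region it was 26.5, 20.5 and 33.5 bp in narrowed pairs.

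**Figure D4:**
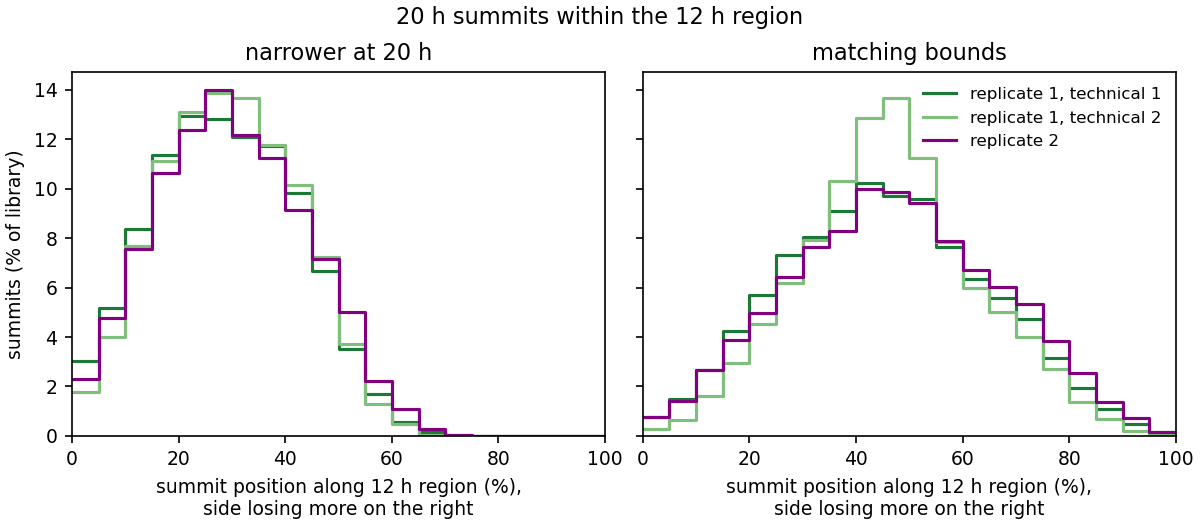
Position of the 20 h summit along the 12 h region (x axis, percent of its length, with the side losing more on the right) against the percent of summits of each 20 h library (y axis), for narrowed pairs (left) and matching pairs (right). In all 3 libraries the summits of narrowed pairs gather on the kept side, with a median distance of 114.5 to 127.5 bp from the 12 h centre, and those of matching pairs gather near the centre.

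A summit could instead be looked for anywhere in the 12 h region. In narrowed pairs the best summit of the whole 12 h region then lay in the kept bases in 85.9% of 9172 pairs in technical replicate 1, in 89.7% of 13250 in the other technical replicate and in 73.1% of 7496 in replicate 2. The kept bases were 36.5% to 37.0% of the 12 h length. The same libraries made the pooled 20 h list that set the kept bases, so that the selection itself favours summits there. The length share is therefore no background for these values. The summit lay in the lost bases in 1289, 1361 and 2015 pairs. Replicate 2, the library with the fewest peaks, thus had its strongest point in a lost flank most often.

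Where libraries had summits in the same narrowed region, these lay near each other. The median distance was 49 bp between the technical replicates (5114 pairs), 57 bp between technical replicate 1 and replicate 2 (2482 pairs) and 49 bp between technical replicate 2 and replicate 2 (3773 pairs). The medians in matching pairs were 52, 63 and 49 bp. A smaller 20 h region leaves less room for summits to differ.

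Width in the single libraries was compared next. The merged peak of a library that overlapped the 20 h region had at most 50% of the 12 h length in 81.2%, 73.9% and 74.6% of narrowed pairs with a peak in technical replicates 1 and 2 and in replicate 2. In matching pairs, weighted to the 12 h lengths of the narrowed pairs, these shares were 29.0%, 12.5% and 34.8%. These libraries contributed to the pooled list on which the pairs were selected. Pairs were therefore also formed between the 12 h list and the peaks of a single 20 h library and read in another library that had no part in that selection, although the 12 h list was shared. The shares that follow are over regions with a peak in the second library, such as 15245 of the 28780 narrow in technical replicate 1 when read in replicate 2, and 12373 of the 25254 narrow in technical replicate 2. Regions narrow in technical replicate 1 were at most 50% of the 12 h length in 63.8% of cases in replicate 2, against 29.5% for regions with matching bounds. Those narrow in technical replicate 2 were so in 65.1% against 38.2%. In the opposite direction, regions narrow in replicate 2 were so in 55.2% against 25.6% in technical replicate 1 and in 41.8% against 15.4% in technical replicate 2. All 4 readings across biological replicates were higher for narrowed regions. For the position no value of matching pairs was computed, so that it cannot be ranked against the width. The best summit in the second library fell into the part kept in the first in 39.2% to 50.8% of cases across biological replicates, where the kept part made up 29.8% to 35.0% of the 12 h length.

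The share of narrowed pairs also moved with the number of peaks in a library. Paired with the 12 h list by itself, technical replicate 2 with 300000 peaks gave 19.4% narrowed of 130089 pairs, technical replicate 1 with 248700 peaks gave 29.4% of 97861, and replicate 2 with 160654 peaks gave 37.6% of 77922. Widened pairs were 1.97%, 1.71% and 1.03%. Among these 3 libraries, one with fewer peaks thus gave more narrowed and fewer widened pairs. They also differ in read ends and in library complexity, with the largest share of duplicate reads in technical replicate 2 by the study's quality report. The read totals that the study states stand in the same order as these numbers of peaks, and those of the 12 h libraries are above all of them. The part of depth in the narrowing between the pooled lists was not tested.

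Without regard to length, narrowed regions lay in somewhat denser surroundings. The nearest other 12 h region was a median of 587 bp from the 12 h bounds of narrowed pairs and within 1 kb in 68.1%, against 705 bp and 61.7% for matching pairs and 1017 bp and 49.4% for widened pairs. Distances to the nearest other 20 h region were 681 bp and 63.0% for narrowed and 739 bp and 60.1% for matching pairs. For widened pairs they were 774.5 bp and 59.3%, close to matching pairs. The sets differ in 12 h length, and these values were not weighted by it. In pairs with one-sided loss, a 20 h neighbour within 1 kb stood on the losing side in 38.8% (Wilson interval 37.9 to 39.7). On the other side it was 38.0% (37.2 to 38.9). The pairing rule allows no other 20 h region to overlap the 12 h region, so that no neighbour could lie in the lost flank. These shares therefore cannot show whether neighbours are more frequent on the losing side.

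The pairs that lost most bases were very long early regions reduced to a small late one. On scaffold 794 the 12 h region from 411112 to 413749 (2638 bp) was paired with a 20 h region of 243 bp from 413339 to 413581, and of 2395 lost bases 2227 lay on the left. Within the 20 h region only technical replicate 1 had a peak, at a fold enrichment of 3.22, whereas replicate 2 had peaks over 157 of the lost bases and technical replicate 1 over 101. On scaffold 474 a 12 h region of 2477 bp (339399 to 341875) became 401 bp (341252 to 341652), and all 3 libraries had a peak at fold enrichments of 2.64, 3.05 and 2.82. Of its 2076 lost bases, 762 were under peaks of technical replicate 2, 302 under peaks of replicate 2 and 0 under peaks of technical replicate 1. On scaffold 619 a region of 2090 bp (383576 to 385665) became 254 bp and lost 1685 bp on the right, with peaks in both technical replicates at 2.34 and 4.20. The next, on scaffold 408 (527467 to 529459), scaffold 529 (355451 to 357379) and scaffold 842 (48437 to 50280), lost 1787, 1740 and 1674 bp. Within the 20 h region each of these last had a peak in technical replicate 2 only. On scaffold 408, peaks of technical replicates 1 and 2 and replicate 2 covered 219, 333 and 0 of the lost bases. On scaffold 529 they covered 431, 157 and 252, on scaffold 842 0, 157 and 0, and on scaffold 619 196, 59 and 150. Among the 6 pairs with most bases lost, 1 had peaks of both biological replicates in its 20 h region.

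The best supported narrowed pairs were of another kind, strong regions that kept nearly 50% of their length. On scaffold 16 the 12 h region from 503110 to 503907 (798 bp) was reduced to 387 bp (503253 to 503639), with fold enrichments of 9.11, 12.9 and 16.9 in technical replicates 1 and 2 and replicate 2 and summits at 503480, 503476 and 503467. These 3 summits lay close together. On scaffold 29134 a 12 h region of 1040 bp (122 to 1161) became 462 bp (681 to 1142), with 559 of 578 lost bases on the left, fold enrichments of 11.8, 7.30 and 16.6 and summits at 847, 833 and 844. On scaffold 501 (91622 to 92450) a region of 829 bp became 366 bp and lost 452 bp on the right and 11 bp on the left, and no lost base was under a peak in any library. Its fold enrichments were 9.98, 11.1 and 6.90. The others were on scaffold 331 (157160 to 158136), which kept its right bound to the base, scaffold 262 (294456 to 295248) and scaffold 627 (189399 to 189977). Their fold enrichments were 8.22 ± 0.133, 7.04 ± 1.36 and 7.05 ± 0.0968 (mean and SD, n = 2). All 6 kept 42.8% to 49.9% of the 12 h length. Over the 1927 pairs with a peak in all 3 libraries, the mean fold enrichment had a median of 2.81 and ranged from 1.75 to 13.9, so that these 6 are the upper end of a set of mostly weak regions.

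In a few pairs the late summit stood at the very end of the early region. On scaffold 3438 the best summit, at 16066, was 1 bp from the end of the 12 h region (15224 to 16067), and the 20 h region ran from 15756 to 16075. On scaffold 376 (318491 to 318877), scaffold 62 (264343 to 264974) and scaffold 668 (154623 to 155028) the summit was 2, 3 and 3 bp from an end. All 4 lost bases on 1 side only. Their summits differed between libraries, at 154980, 155007 and 155025 on scaffold 668 and at 15902, 15986 and 16066 on scaffold 3438.

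Narrowed pairs were also found at candidate regulatory regions whose activity earlier work had measured with reporter genes. Their positions and gene names were taken from the table of the study without the measured activities. The study states that these regions were chosen mainly for sequence conservation and that most were inactive. They are called tested regulatory regions here, whether active or not. Of 350 one-to-one pairs that overlapped a tested region, 49 were narrowed, 14% (Wilson interval 10.8 to 18.0), which was the share over all pairs. Of the 274 with a 12 h region of 300 bp or more the share was 17.9% (13.8 to 22.9), against 21%. These 49 pairs lay at 23 of 37 genes. One-sided loss was found in 41 of them, 83.7%, a peak in both biological replicates in 19 (38.8%), a peak in all 3 libraries in 6, and each had a peak in at least 1 library. Lost bases ranged from 174 to 779 with a median of 330.

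The narrowed pairs were spread over genes of several roles. Among signalling genes, *Chordin*, which encodes an antagonist of BMP ligands, had 4 of 17 pairs narrowed and *Bmp24*, which encodes a BMP ligand of the oral-aboral axis, had 3 of 13, whereas *Univin*, which encodes a TGF-beta ligand that acts with Nodal, had 0 of 8. Among transcription factor genes, *Elk*, of the ETS family, had 4 of 7 narrowed, and the iroquois homeobox gene *IrxA* had 4 of 14. Forkhead genes differed, with 4 of 21 at *FoxN23*, 3 of 9 at *FoxG* and 1 of 4 at *FoxB* but 0 of 7 at *FoxJ1*, 0 of 5 at *FoxO* and 0 of 3 at *FoxK*. *Dach*, a dachshund family gene, had 4 of 22, and the homeobox gene *Prox* and the T-box gene *Tbx23* had 3 of 11 and 3 of 17. The LIM homeobox gene *Lim1* had 2 of 22. No pair was narrowed among 15 at *Sip1*, 11 at *Nk22*, 10 at *Gsc* and 7 at *SoxB1*, which encode homeodomain factors and a Sox factor. Counts per gene are small, and differences between genes were not tested.

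Of the 15 narrowed pairs at tested regions that lost most bases, that at *Z188*, a zinc finger gene, was the largest. Its 12 h region on scaffold 153 from 320089 to 321232 (1144 bp) was paired with 365 bp from 320530 to 320894, with 441 bp lost on the left and 338 bp on the right, and peaks in technical replicate 2 and replicate 2 at fold enrichments of 2.59 and 2.04. At *Prox* on scaffold 468 the 12 h region from 262784 to 263768 (985 bp) lost 721 bp, all on the left, and its 20 h region of 379 bp ran past the right end. Peaks there had fold enrichments of 2.29 in technical replicate 1 and 3.02 in replicate 2, and replicate 2 covered 346 and technical replicate 2 covered 263 of the lost bases. At *Nk1*, a homeobox gene, the 12 h region on scaffold 1564 from 207116 to 207750 and the 20 h region from 206896 to 207125 overlapped by so little that 625 of 635 bp counted as lost, so that this pair is nearer to a replacement than to a narrowing. The best summit there, at 206961, lay outside the 12 h region.

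*Shr2*, a nuclear receptor gene, was the only 1 of these 15 with a peak in all 3 libraries. Its 12 h region on scaffold 2330 from 18474 to 19212 (739 bp) became 245 bp (18905 to 19149), with fold enrichments of 2.99, 3.13 and 2.83, and summits at 19037, 19044 and 18975. At *Lim1* on scaffold 857 the region from 158161 to 159013 (853 bp) became 230 bp, and both technical replicates had a peak, at 3.71 and 2.97, whereas replicate 2 had none. At *FoxG* on scaffold 3 a pair of regions was narrowed on opposite sides. The region from 2061880 to 2062643 lost 586 bp on the right and that from 2046862 to 2047484 lost 433 bp on the left. In the first of these replicate 2 had no peak in the 20 h region but covered 150 of the lost bases, and technical replicates 1 and 2 covered 7 and 307 of them. At *IrxA* on scaffold 688 a pair of regions was likewise narrowed, by 541 bp in the one from 258590 to 259315 and by 460 bp in the one from 222451 to 223222. In the first, replicate 2 had no peak in the kept and 236 bp of peak in the lost bases. Technical replicates 1 and 2 covered 109 and 36 bp elsewhere in the lost bases, without overlap with that peak of replicate 2.

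The others were at *Six12*, a homeobox gene, on scaffold 143 (767289 to 768052, 581 bp lost), *FoxB* on scaffold 912 (290602 to 291457, 506 bp lost), *FoxN23* on scaffold 592 (135401 to 136000, 483 bp lost), a second *Prox* region on scaffold 468 (275380 to 276027, 452 bp lost), *Elk* on scaffold 630 (413215 to 413814, 450 bp lost) and *Tbx23* on scaffold 364 (491891 to 492544, 417 bp lost). The 20 h regions at *FoxN23* and *Elk* had the minimum length of 150 bp. At *Six12* every library covered part of the lost bases, 150, 126 and 150 bp, and these peaks overlapped each other only in part. Fold enrichments in these 15 pairs ran from 2.04 to 3.71.

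**Figure D5:**
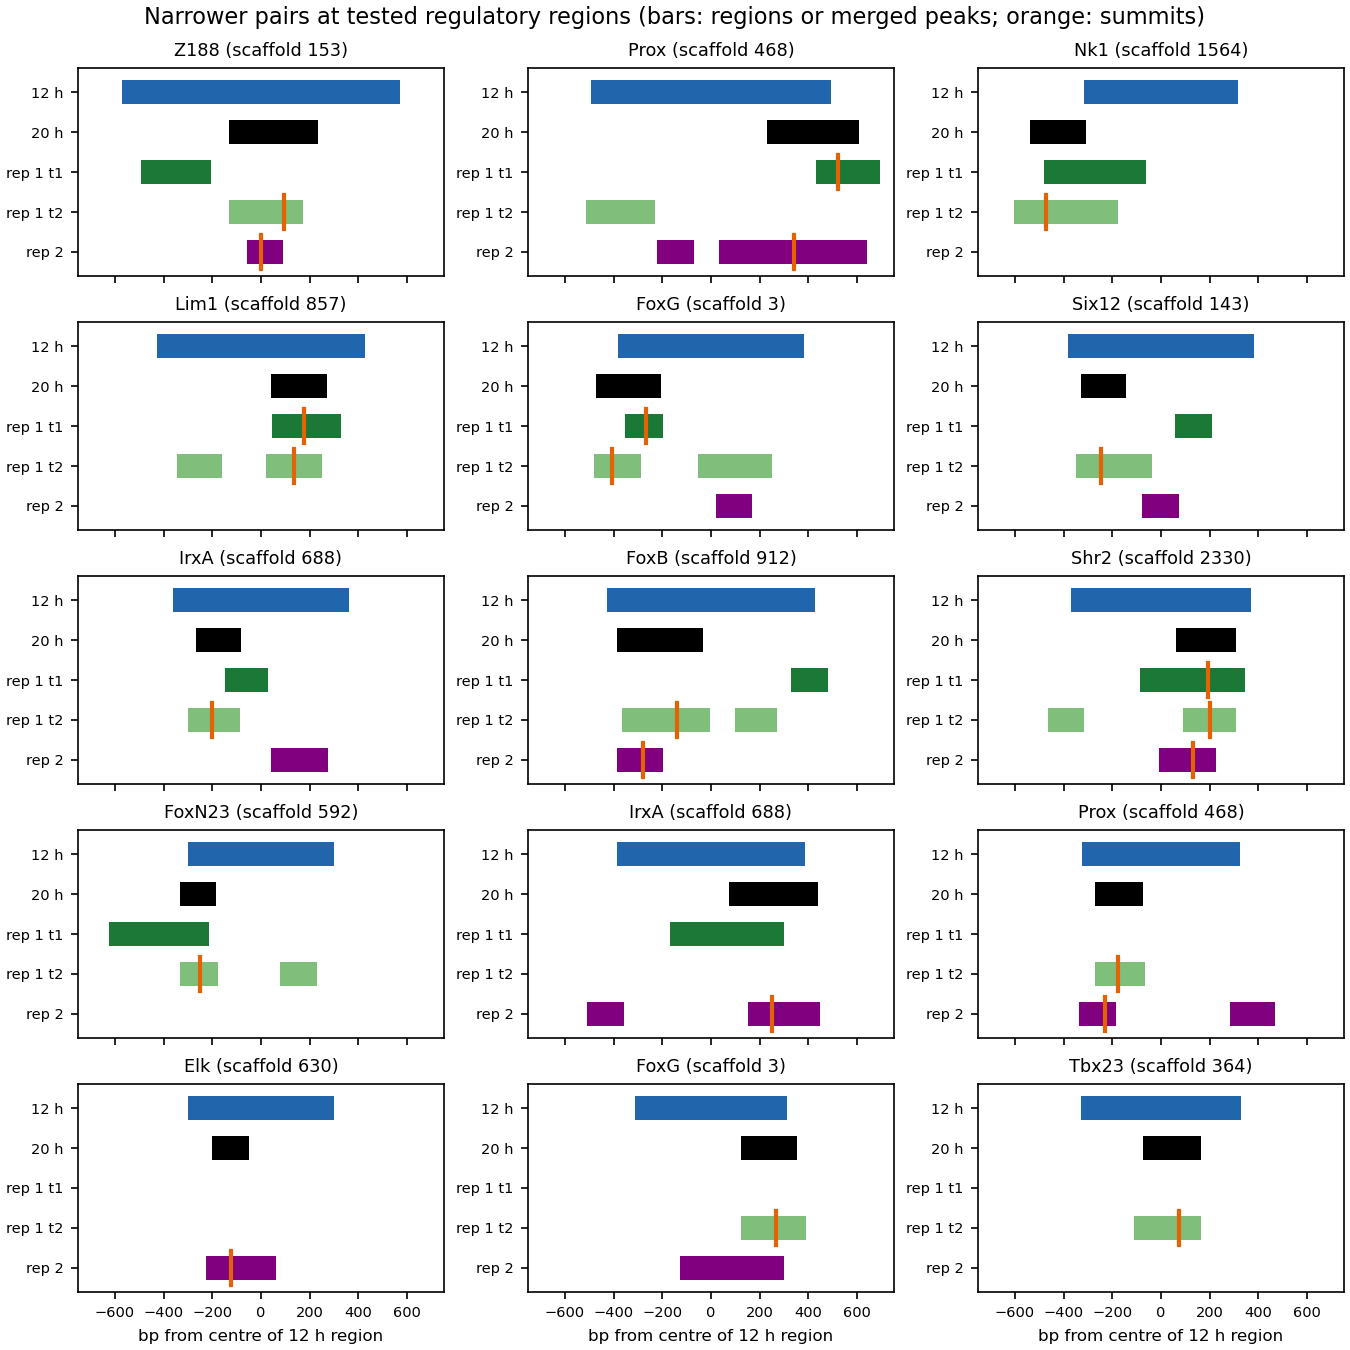
The 15 narrowed pairs at tested regulatory regions with most bases lost, each panel showing the pooled 12 h region (blue), the pooled 20 h region (black) and the merged peaks of technical replicates 1 and 2 of replicate 1 (dark and light green) and of replicate 2 (purple) along the distance in bp from the centre of the 12 h region (x axis). Orange marks are summits of the best peak inside the 20 h region. At *Shr2* all 3 libraries have a summit in the kept part, whereas at *Six12* peaks of technical replicate 1 and replicate 2 lie only in the lost part.

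Narrowed pairs occurred on 2817 scaffolds. On the 372 scaffolds with at least 100 one-to-one pairs, their share had a median of 14.5% and ranged from 4.81% to 24.8%. It was highest on scaffold 485, with 34 of 137 pairs (Wilson interval 18.3 to 32.7), scaffold 71, with 30 of 129 (16.8 to 31.3), and scaffold 632, with 28 of 121 (16.5 to 31.4). It was lowest on scaffold 146, with 5 of 104 (2.07 to 10.8), scaffold 514, with 5 of 101 (2.13 to 11.1), and scaffold 277, with 6 of 107 (2.595 to 11.7). Median 12 h lengths were 396 to 435 bp on the 3 highest and 335 to 385 bp on the 3 lowest. A relation with length over all scaffolds was not computed. The intervals do not allow for these scaffolds having been picked as extremes.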

How the data were processed

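The authors aligned ATAC-seq reads to genome version 3.1 in the ENCODE pipeline and called peaks at p 0.05 with MACS2, whose version was not given in the sources used here, keeping at most 300000 peaks per list. Deposited were 1 merged list per stage, called on pooled libraries and without scores, and 1 peak list per 20 h library. Both 12 h libraries and technical replicate 1 were sequenced with paired ends, the others with single ends. The fold enrichment and −log10 p of each peak are the values of the authors' peak caller, and they carry no replicate error. The lists hold no read counts; the read totals stated by the study were used only for their order, and the numbers of peaks per 20 h list were 248700, 300000 and 160654. Lists per 12 h library, genome sequence and gene annotation were not used here.

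Overlapping or touching peaks of a library were merged. Lost bases are 12 h bases outside the 20 h region. Values of matching pairs were weighted to narrowed pairs over length classes with edges at 150, 200, 250, 300, 400 and 600 bp. Technical replicates were averaged before the mean and SD over 2 biological replicates, and a peak in either counted for replicate 1. A summit was used when it lay in the 20 h region, from the peak with the highest −log10 p. Named were the 6 pairs with most bases lost, the 6 with the best mean rank of −log10 p among those in all 3 libraries, the 4 of these with the summit nearest an end, the 15 at tested regulatory regions with most bases lost, the 2 just inside and the 2 just outside the limit, and the 3 highest and 3 lowest scaffolds. Members and lists were chosen with earlier results of these data known, and no p-value was computed.

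Alternatives were an overlap of 50% of the shorter region, merging within 100 bp, a length limit of 40%, 20 h regions in both replicates, a one-sided limit of 90%, the summit of highest fold enrichment, peaks of −log10 p of 3 or more, weighting by 12 h length or not at all, and leaving out each library. Functions were tested on simulated data. Python 3.11.15 with numpy 2.4.6 and scipy 1.17.1 was used. Coordinates are 1-based.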

Additional observations from a re-analysis of the deposited data

Results flagged for a closer look

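The share of narrowed pairs with a peak, less that of matching pairs weighted to the same 20 h lengths, differed in sign between libraries. It was -1.48 points in technical replicate 1 and -6.08 points in technical replicate 2 of replicate 1, and 1.23 points in replicate 2. The difference between the replicates was not tested, since each is a single biological sample.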

How the results depend on the processing

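Of 29 alternative values, 15 stayed close to the reported ones, which means within 1.5 times for counts, within the Wilson interval for the one-sided share and within 1 SD between biological replicates for the rest. That SD is wide for the difference in support. The number of narrowed pairs was 8868 when pairs were formed anew with only the 20 h regions in both biological replicates. Of the reported pairs 5616 had a peak in both, so that the 8868 also hold pairs not among the reported ones. The number was 9306 at a limit of 40%, by the stricter limit, and 10983 after division by the median length ratio. One-sided loss was 41.3% at a limit of 90% of lost bases, by the stricter limit, and 67.7% with regions merged within 100 bp. Lost bases under a peak were 14.3% with peaks of −log10 p of 3 or more, 18.5% to 24.3% when a library was left out and 1.31% in both biological replicates, each by requiring more or using fewer peaks. The difference in support by both replicates, 0.00438 points at equal 20 h length, was -14.6 points without weighting, -43.1 points weighted by 12 h length and -6.93 points with peaks of −log10 p of 3 or more. It was -1.77 and -0.752 points without technical replicate 1 or 2. The log2 difference in fold enrichment was -0.22 without weighting. The cause was not tested for the differences by weighting and by p limit. Division by the median ratio, the 150 bp minimum and bases in both replicates were added after seeing the data. No paired analysis was possible because 1 pooled list stands for both 12 h libraries.

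With no read counts in the lists, depth could not be equalised between stages or libraries. The list of technical replicate 2 is full at 300000 peaks, so that its weakest peaks are missing. The 150 bp minimum was the length of 22.3%, 17.6% and 40.6% of peaks in the libraries, 1.26% of the 12 h and 9.60% of the 20 h pooled regions.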
